A study of Mus musculus with 8 samples.

Results

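Embryonic stage was compared across both cell fractions of the study: all 4 arrays of embryonic day (E) 7.5 were set against all 4 arrays of E6.5, paired by fraction and replicate number. These were all 8 arrays of the series, chosen by their labels alone. They formed 4 pairs: GFP+ replicate 1, GFP+ replicate 2, GFP- replicate 1 and GFP- replicate 2, and 4 values in a row below follow this order. The question was which genes change over this day of gastrulation in the same way whether or not the cells express the reporter. Each sample held 50 living cells sorted from gastrulating Mesp1-rtTA/Teto-H2B-GFP embryos, and its cDNA was amplified for 25 cycles. All groups carried both transgenes, and the labels named no wild-type control. The 4 groups, with 2 arrays each, were GFP+ cells at E6.5, GFP- cells at E6.5, GFP+ cells at E7.5 and GFP- cells at E7.5. GFP+ marks activity of the Mesp1-driven transactivator, and stable nuclear GFP can outlast it. GFP- cells are all other living cells of the embryo, of any type. The labels call the replicates biological, and do not say how many embryos were pooled or whether both fractions or stages of a number shared a litter.

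At gastrulation, epiblast cells pass through the primitive streak, lose their epithelial form and become mesoderm or endoderm. Signals of the Nodal, Wnt, FGF and BMP families pattern the streak, and retinoic acid made by the first mesoderm helps to set anteroposterior identity. Pluripotency genes are silenced over the same period, while Hox, Cdx and paraxial mesoderm genes come on. In a bulk sample, fewer cells of a type and less RNA per cell cannot be told apart, and this holds for every change given here.

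Of 11706 genes tested, 27 passed (0.231%), with limma's Benjamini-Hochberg adjusted p under 0.05: 23 were higher at E7.5 (0.196%) and 4 were lower (0.0342%). The genes that rose were led by the retinoic acid enzyme gene Aldh1a2, the forkhead genes Foxc2 and Foxc1, the paraxial mesoderm gene Msgn1, the protocadherin gene Pcdh19 and the Hox gene Hoxb2. The genes that fell were Dppa5a, Nanog, Nefl and Ap1m2. All 27 changed by at least 2-fold in the same direction in each of the 4 pairs, and in 26 of them the 4 arrays of a stage did not overlap the 4 of the other, where 2.4% of all genes did so with E7.5 higher and 2.01% with E6.5 higher. The fit favours large and even pair differences, so this agreement follows largely from how the 27 were picked. It is not separate support for them. Across all genes, 70 were at least 2-fold higher in all 4 pairs (0.598%) and 13 were at least 2-fold lower (0.111%). The deposited log2 values had array medians of 4.197 to 4.233 in replicate 1 and 4.545 to 4.594 in replicate 2, and every difference here was taken within a replicate number. The replicate numbers thus look separately normalized, which no label states. Statements on overlap of the stages and on levels below the median of all values do compare across numbers. After quantile normalization of all 8 arrays, chosen after seeing the data and with the same probe sets, 26 of the 27 again did not overlap (2.82% of all genes with E7.5 higher and 1.96% with E6.5 higher). An exact test on the signs of 4 pairs alone cannot go below p = 0.125, so that each call also rests on the spread shared across genes. The calls needed all 4 pairs. Without GFP+ replicate 1, GFP- replicate 1 or GFP- replicate 2, 0 genes passed (1193, 1320 and 1224 had an unadjusted p under 0.05, against 1428 with all pairs), and 4 passed without GFP+ replicate 2, of which 1 was among the 27.

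**Figure D1:**
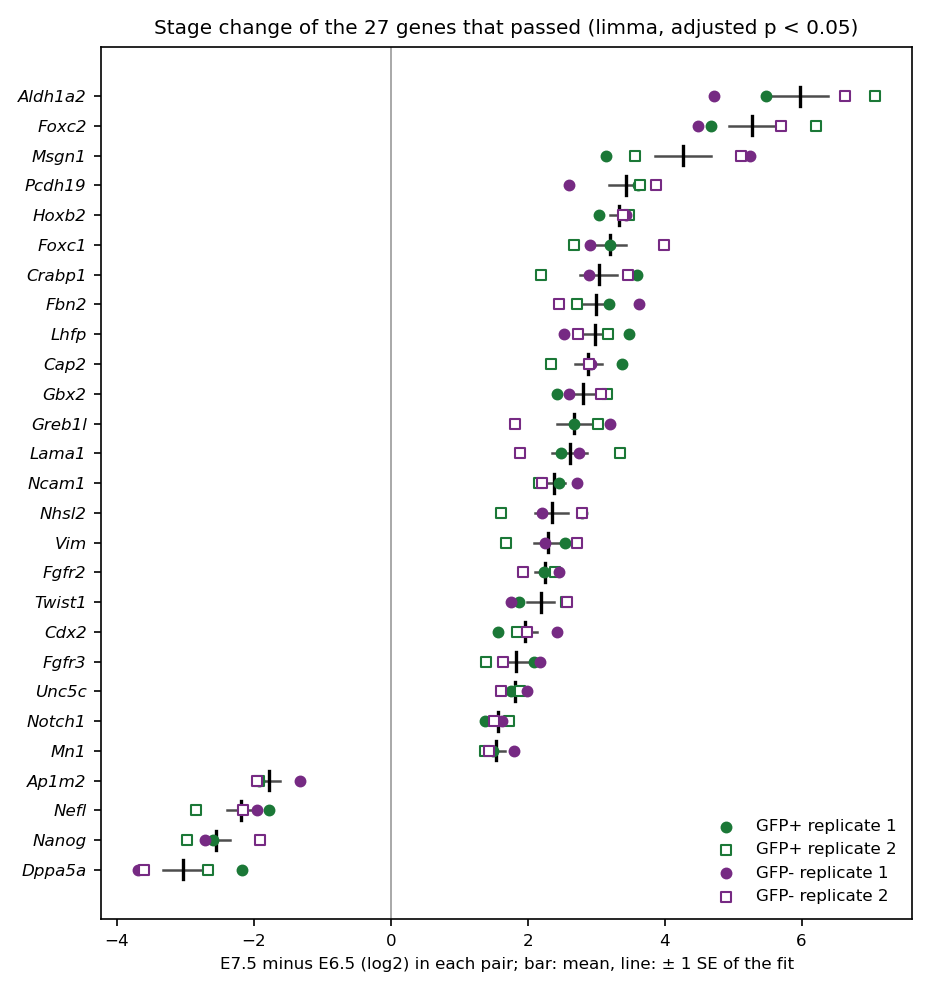
Difference between E7.5 and E6.5 (log2, horizontal axis) in each of the 4 pairs for the 27 genes that passed; green marks are GFP+ pairs, purple marks GFP- pairs, filled circles replicate 1 and open squares replicate 2, with the mean (bar) and 1 SE of the fit (line). Every mark lies at least 1 log2 unit from 0, from 5.98 on average for Aldh1a2 down to -3.03 for Dppa5a.

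Proximal sequences are shown for 4 of these genes, since each is a called gene with a promoter entry from one of the lists described next: a retinoic acid enzyme, a paraxial mesoderm factor, a caudal factor and a pluripotency factor. Each is the 250 bases before the transcription start in RefSeq (GRCm38.p6), written from 5′ to 3′ on the gene's own strand. They lie at chr9:71215539-71215788 on the plus strand for Aldh1a2, at chr12:11208949-11209198 on the minus strand for Msgn1, at chr5:147307250-147307499 on the minus strand for Cdx2, and at chr6:122707239-122707488 on the plus strand for the first listed start of Nanog. Capitals mark a match, on either strand, to ATGCAAA (the octamer core of POU factors), AGGTGT (a T-box core), CTTTGAT (TCF/LEF) or AGGTCA (a nuclear receptor core).
Aldh1a2: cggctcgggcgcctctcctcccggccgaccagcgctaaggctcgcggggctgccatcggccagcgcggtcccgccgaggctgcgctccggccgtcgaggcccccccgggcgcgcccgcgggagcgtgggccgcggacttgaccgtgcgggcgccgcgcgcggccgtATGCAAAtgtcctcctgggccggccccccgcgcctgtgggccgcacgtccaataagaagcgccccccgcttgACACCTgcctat
Msgn1: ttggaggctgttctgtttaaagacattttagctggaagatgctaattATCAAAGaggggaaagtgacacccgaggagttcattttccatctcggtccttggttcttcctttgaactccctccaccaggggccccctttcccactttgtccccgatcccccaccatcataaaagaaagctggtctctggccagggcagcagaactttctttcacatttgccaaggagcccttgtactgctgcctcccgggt
Cdx2: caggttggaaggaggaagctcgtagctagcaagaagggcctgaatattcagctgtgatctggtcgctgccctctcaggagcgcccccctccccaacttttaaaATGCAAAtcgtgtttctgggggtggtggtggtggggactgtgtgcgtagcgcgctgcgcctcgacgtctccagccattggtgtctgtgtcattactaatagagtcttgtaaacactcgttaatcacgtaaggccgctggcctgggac
Nanog: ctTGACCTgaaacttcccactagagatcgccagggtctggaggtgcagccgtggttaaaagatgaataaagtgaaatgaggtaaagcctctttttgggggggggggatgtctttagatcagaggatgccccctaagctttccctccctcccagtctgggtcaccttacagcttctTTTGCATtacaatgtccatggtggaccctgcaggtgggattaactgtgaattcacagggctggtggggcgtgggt
The octamer core begins 84 bases before the start of Aldh1a2, 147 before that of Cdx2 and, on the reverse strand, 75 before that of Nanog. It occurs in 4.12% of 32851 mouse promoters of this length, and in 3 of the 17 called genes that had a promoter entry. A gene counted when any of its listed promoters matched. Counts of the 17 genes are therefore not directly comparable with the shares of promoters. Msgn1 has a TCF/LEF match on the reverse strand 203 bases before its start, against 3.21% of all promoters, and was the single gene of the 17 with one. The T-box core occurs in 11.8% of all promoters and in 4 of the 17 (Aldh1a2, Fgfr3, Twist1 and Unc5c). The nuclear receptor core occurs in 14% of all and in 1 of the 17 (Nanog). The Hox-Pbx motif TGATNNAT, which can share its first 4 letters with the end of CTTTGAT, occurs in 7.68% of all and in 2 of the 17 (Ap1m2 and Fgfr2). These matches describe letters in a window and not binding.

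Retinoic acid genes changed at synthesis and binding. Aldh1a2 encodes the main retinaldehyde dehydrogenase of the gastrulating embryo. Its levels were 3.52, 3.02, 3.97 and 3.28 at E6.5 and 8.998, 10.09, 8.69 and 9.91 at E7.5 (log2). The stages did not overlap, and the E6.5 values all lay below 4.38, the median of all deposited values, so the size of the change is uncertain. Aldh1a2 rose by 5.98 ± 0.41 (SE), or 63.0-fold (adjusted p = 0.0180). Crabp1, which encodes a cytosolic retinoic acid binding protein, had 6.79, 7.93, 7.16 and 6.53 at E6.5 and 10.39, 10.12, 10.05 and 9.99 at E7.5. All E7.5 values of Crabp1 lay above all E6.5 values, and it rose by 3.04 ± 0.26 (SE) (adjusted p = 0.0361). Its relative Crabp2 was 1.97 higher, with a larger difference in GFP+ pairs (3.02, 2.48, 1.21 and 1.18), and did not pass (adjusted p = 0.140). The retinol dehydrogenase gene Rdh10 (0.63) and the receptor gene Rarg (-0.35) did not pass either. Of 14 measured genes of retinoic acid metabolism and response, 2 rose and 0 fell, and the median change was 0.21, against a median of -0.02 over all genes.

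Hoxb2, a homeobox gene of the hindbrain and of early mesoderm, had the smallest adjusted p of all genes. Its levels were 4.22, 4.87, 3.92 and 4.67 at E6.5 and 7.26, 8.35, 7.35 and 8.07 at E7.5. The 4 pair differences were nearly equal (3.04, 3.48, 3.44 and 3.40), and Hoxb2 rose by 3.34 ± 0.14 (SE), or 10.1-fold (adjusted p = 0.0108). Its E6.5 values in replicate 1 lay below 4.38, so the size of the change is uncertain. Hoxb1 differed by more on average (4.62 ± 0.66 (SE)) but less evenly, at 2.82, 3.42, 6.33 and 5.89, and did not pass (adjusted p = 0.0873). Hoxa3 (2.65 ± 0.37 (SE), adjusted p = 0.0832) and Hoxb3 (1.22 ± 0.26 (SE), adjusted p = 0.185) were higher in all 4 pairs without passing. The E6.5 means of Hoxa3 and Hoxb3 lay below 4.38, so the sizes of their changes are uncertain. Of 14 measured Hox genes, 1 rose and 0 fell. There were 6 that lay higher at E7.5 in all 4 pairs and 1 lower. Of all genes, 9.62% lay higher and 11.1% lower in all 4. Of 27 listed Hox genes, those measured had to pass the expression filter, which a gene could do through its E7.5 arrays alone. The median change was 0.53 with the filter and 0.12 without it. The counts of 6 and 1 therefore apply to the filtered Hox genes and not to all that were listed.

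Among Cdx, Meis and Pbx genes, which encode regulators and cofactors of Hox proteins, Cdx2 passed. Cdx2 levels were 5.34, 5.22, 5.17 and 6.06 at E6.5 and 6.91, 7.06, 7.60 and 8.04 at E7.5, with no overlap. It rose by 1.96 ± 0.18 (SE) (adjusted p = 0.0375). Cdx1 was 3.96 higher with pair differences of 2.60, 3.01, 4.86 and 5.35 (adjusted p = 0.0765), Pknox2, a TALE homeobox gene, was 3.31 higher (adjusted p = 0.0532), and Meis1 1.34 higher (adjusted p = 0.117). The E6.5 means of Cdx1 and Meis1 lay below 4.38, so the sizes of their changes are uncertain. The 10 measured genes of this group had a median of 0.96, with 1 that rose and 0 that fell. Gbx2, a homeobox gene that sets the posterior limit of Otx2 territory, had 4.23, 4.74, 4.23 and 3.45 at E6.5 and 6.65, 7.90, 6.82 and 6.51 at E7.5. Gbx2 rose by 2.81 ± 0.18 (SE) (adjusted p = 0.0180), from a mean below 4.38. Otx2 itself, a gene of the anterior epiblast, was lower in all 4 pairs (-0.93, -1.54, -1.45 and -1.24) and did not pass (adjusted p = 0.0741).

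The paraxial mesoderm group, which forms the somites, held 15 measured genes, of which 4 rose (Foxc2, Aldh1a2, Foxc1 and Msgn1) and 0 fell. Its median change was 1.78, and 10 of the 15 were higher in all 4 pairs (66.7%, against 9.62% of all genes). Foxc2 levels were 3.50, 2.79, 3.41 and 2.51 at E6.5 and 8.18, 9.01, 7.90 and 8.21 at E7.5. All E6.5 values of Foxc2 were below 4.38 and all E7.5 values far above it, so the size of its change is uncertain. Foxc2 rose by 5.27 ± 0.33 (SE), or 38.6-fold (adjusted p = 0.0180). Its paralogue Foxc1, which like Foxc2 encodes a forkhead factor needed for somite and vessel formation, went from 4.14, 6.34, 3.57 and 3.87 to 7.34, 9.01, 6.48 and 7.86. The highest E6.5 value of Foxc1, in GFP+ replicate 2, lay just under the lowest E7.5 value, and Foxc1 rose by 3.20 ± 0.24 (SE) (adjusted p = 0.0216). Its other E6.5 values lay below 4.38, so the size of this change is also uncertain.

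Msgn1 encodes a basic helix-loop-helix factor of presomitic mesoderm. Its levels were 6.29, 6.48, 4.75 and 4.86 at E6.5 and 9.44, 10.05, 10.00 and 9.98 at E7.5. GFP+ cells started higher, and the E7.5 values of both fractions lay close together. Msgn1 rose by 4.27 ± 0.41 (SE), or 19.3-fold (adjusted p = 0.0396). The T-box gene Tbx6, which acts with Msgn1, was 2.51 higher with pair differences of 1.54, 2.10, 2.77 and 3.64 (adjusted p = 0.0855). Of the Notch pathway, which times somite formation, the receptor gene Notch1 passed. Notch1 went from 7.27, 8.11, 5.46 and 7.34 to 8.65, 9.84, 7.08 and 8.85, and was the one gene of the 27 whose stages overlapped, because its level also differed between pairs. Each pair still differed by 1.38, 1.73, 1.62 and 1.504, and Notch1 rose by 1.56 ± 0.13 (SE) (adjusted p = 0.0340). The ligand genes Dll1 (1.98, adjusted p = 0.0561) and Dll3 (2.38, adjusted p = 0.219) were higher in all 4 pairs and did not pass. The target gene Hes1 was lower in all 4 (-1.15, adjusted p = 0.165). The Notch pathway's 13 measured genes had a median of 0.09, with 1 that rose and 0 that fell.

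**Figure D2:**
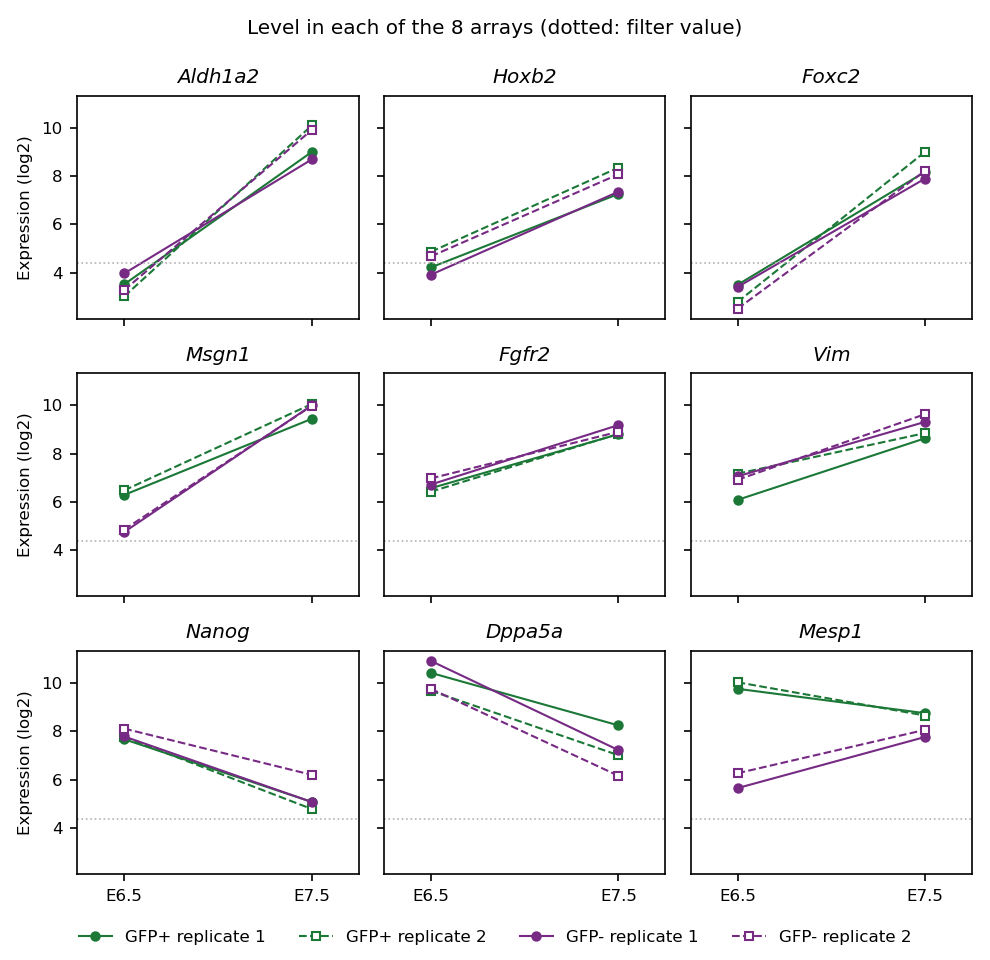
Expression (log2, vertical axis) in each of the 8 arrays for 9 genes, with a line for each pair of fraction and replicate number (green GFP+, purple GFP-, solid replicate 1, dashed replicate 2) and a dotted line at 4.38, the value used by the filter. Lines run parallel for Hoxb2, converge for Msgn1, and run downward in GFP+ and upward in GFP- cells for Mesp1, which did not pass.

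Mesenchymal and matrix genes were the next group. Vim, the intermediate filament vimentin of mesenchymal cells, had 6.09, 7.17, 7.06 and 6.92 at E6.5 and 8.63, 8.85, 9.31 and 9.63 at E7.5. Vim was higher at E7.5 in every array and rose by 2.30 ± 0.21 (SE) (adjusted p = 0.0375). Twist1, a factor of epithelial-mesenchymal transition, went from 4.87, 5.78, 4.68 and 5.05 to 6.74, 8.33, 6.43 and 7.63. Twist1 rose by 2.19 ± 0.20 (SE) (adjusted p = 0.0375). With Foxc1, this made 3 of 15 measured mesenchymal genes that rose and 0 that fell, with a median of 1.59. In all 4 pairs 10 were higher (66.7%, against 9.62% of all genes). Zeb1 (1.72, adjusted p = 0.0741) and Zeb2 (1.48, adjusted p = 0.133), repressors of epithelial genes, were higher in all 4 pairs and did not pass. The E6.5 mean of Zeb1 lay below 4.38, so the size of its change is uncertain. The neural cadherin gene Cdh2 was 1.59 higher on average, through the GFP- pairs (0.83, -0.02, 2.92 and 2.61, adjusted p = 0.333).

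Of 17 matrix genes, 2 rose and 0 fell, with a median of 1.18. Fbn2, a fibrillin of embryonic microfibrils, had 5.43, 5.89, 4.46 and 5.62 at E6.5 and 8.63, 8.61, 8.08 and 8.08 at E7.5, and rose by 3.00 ± 0.23 (SE) (adjusted p = 0.0216). Lama1, the laminin chain of the first basement membranes, had 5.71, 5.96, 5.05 and 6.42 and 8.20, 9.31, 7.79 and 8.31, and rose by 2.62 ± 0.25 (SE) (adjusted p = 0.0396). The collagen genes Col4a2 (2.003, adjusted p = 0.106), Col5a1 (1.18, adjusted p = 0.136) and Col5a2 (1.64, adjusted p = 0.144) were higher in all 4 pairs. None of these 3 passed. The E6.5 mean of Col5a2 lay below 4.38, so the size of its change is uncertain.

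Epithelial genes gave no call. Of 18 measured, 0 rose and 0 fell, and the median was -0.26. In all 4 pairs 8 were lower (44.4%) and 2 higher (11.1%), against 11.1% and 9.62% of all genes. The epithelial cadherin gene Cdh1 differed by -0.78 (pairs 0.00, -0.78, -1.03 and -1.29, adjusted p = 0.3001). The splicing regulator gene Esrp1 (-1.84, adjusted p = 0.179), the vesicle gene Rab25 (-1.38, adjusted p = 0.159) and the claudin gene Cldn7 (-1.15, adjusted p = 0.187) were lower in all 4 pairs. The keratin gene Krt8 was 1.42 higher in all 4 (adjusted p = 0.0893). Ap1m2, which encodes an adaptor subunit for basolateral sorting in epithelial cells and was not on that list, had 8.30, 7.27, 8.35 and 7.59 at E6.5 and 6.38, 5.34, 7.03 and 5.64 at E7.5. It was lower in every E7.5 array and fell by 1.78 ± 0.17 (SE; adjusted p = 0.0375).

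FGF pathway genes are given by role. Of 21 measured, 2 rose, both receptors, and 0 fell, and the median was -0.30. Fgfr2 had 6.57, 6.42, 6.72 and 6.97 at E6.5 and 8.80, 8.82, 9.18 and 8.91 at E7.5, a gap wider than the spread within either stage. Fgfr2 rose by 2.26 ± 0.15 (SE) (adjusted p = 0.0180). Fgfr3 had 5.19, 5.17, 4.89 and 5.90 and 7.28, 6.57, 7.07 and 7.53, and rose by 1.82 ± 0.18 (SE) (adjusted p = 0.0423). The ligand genes Fgf5, of the epiblast, and Fgf8, of the streak, were lower in all 4 pairs and did not pass (adjusted p = 0.0805 for both). The pair differences were -1.38, -1.52, -2.33 and -2.68 for Fgf5 and -1.47, -1.92, -0.97 and -2.05 for Fgf8. Etv5, a transcription factor gene induced by FGF signals, differed by -1.40 (adjusted p = 0.0805). In all 4 pairs 7 genes of the list were lower (33.3%) and 4 higher (19.05%), against 11.1% and 9.62% of all genes.

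The other genes that rose encode surface, cytoskeletal and regulatory proteins. Pcdh19, a protocadherin of the nervous system and paraxial mesoderm, went from a mean of 4.42 to 7.85, with pair differences of 3.61, 3.63, 2.61 and 3.87, and rose by 3.43 ± 0.24 (SE) (adjusted p = 0.0180). Its E6.5 mean lay near 4.38, so the size of the change is uncertain. Ncam1, the neural cell adhesion molecule, went from 4.47, 6.08, 4.41 and 5.65 to 6.94, 8.24, 7.13 and 7.87, and rose by 2.39 ± 0.15 (SE) (adjusted p = 0.0180). This call depended on the probe set: of 5 others, 2 differed by 1.75 and 1.61 and 3 by 0.401, 0.239 and 0.084. Ncam1 did not pass with the mean of all probe sets (1.08, adjusted p = 0.0595), with quantile normalization over all arrays, where another probe set was taken (1.78, adjusted p = 0.168), or with no replicate block (2.39, adjusted p = 0.13). Unc5c, a netrin receptor, rose by 1.81 ± 0.13 (SE) (adjusted p = 0.0216). Cap2, an actin-binding protein, rose by 2.88 ± 0.20 (SE) (adjusted p = 0.0180), and Lhfp, a tetraspan membrane protein, by 2.98 ± 0.20 (SE) (adjusted p = 0.0180). The E6.5 means of Unc5c, Cap2 and Lhfp lay below 4.38, so their sizes are uncertain. Greb1l, a gene needed for kidney formation, rose by 2.68 ± 0.26 (SE) (adjusted p = 0.0396), Nhsl2 by 2.35 ± 0.24 (SE) (adjusted p = 0.0467) and the transcriptional regulator gene Mn1 by 1.53 ± 0.14 (SE) (adjusted p = 0.0375). Unc5c and Mn1 were named after their values were seen. Of the 27 genes, 12 had 16 further probe sets that passed the filter, and 4 more probe sets of 3 genes did not pass it. All 20 differed in the same direction as the one used, but sizes varied: further probe sets that passed the filter differed by 0.257 for Fgfr3, 0.688 for Foxc1 and 0.219 for Nhsl2, and one below it by 0.018 for Fgfr2. With the mean of all probe sets these genes did not pass, at 1.04 for Fgfr3 (adjusted p = 0.088), 1.94 for Foxc1 (adjusted p = 0.0595), 1.34 for Nhsl2 (adjusted p = 0.158) and 1.40 for Fgfr2 (adjusted p = 0.0867), which is more than 1.5 times smaller than with the probe set used.

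The falling genes included 2 of 20 measured pluripotency and epiblast genes, and 0 of the 20 rose. Nanog, a homeobox factor of pluripotent cells, had 7.67, 7.76, 7.78 and 8.11 at E6.5 and 5.07, 4.78, 5.07 and 6.19 at E7.5. All E7.5 values lay below all E6.5 values, and the GFP- replicate 2 array kept the highest of them. Nanog fell by 2.55 ± 0.21 (SE; 5.86-fold, adjusted p = 0.0276). Dppa5a, an RNA-binding protein gene of pluripotent cells, had 10.41, 9.68, 10.91 and 9.75 at E6.5 and 8.24, 7.01, 7.22 and 6.16 at E7.5. It fell by 3.03 ± 0.30 (SE; 8.18-fold, adjusted p = 0.0396), with larger differences in the GFP- pairs. Nefl, the neurofilament light chain, had 8.50, 8.29, 9.14 and 8.71 and 6.73, 5.45, 7.18 and 6.55, and fell by 2.18 ± 0.21 (SE; adjusted p = 0.0396).

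Other pluripotency genes were lower without passing. The list's median was -0.85, and 12 of its 20 measured genes were lower in all 4 pairs (60%) with 0 higher. Over all genes these shares were 11.1% and 9.62%. L1td1, an RNA-binding protein gene of pluripotent cells, differed by -2.02 (adjusted p = 0.0741), and Pim2, a survival kinase gene, by -1.75 (adjusted p = 0.132). Pou5f1, the central pluripotency factor gene, differed by -0.74 ± 0.15 (SE) from a mean of 11.08 at E6.5 to 10.34 at E7.5 (adjusted p = 0.177). Sox2 went both ways, at 0.11, -1.10, 1.17 and -1.95 (adjusted p = 0.801). The de novo methyltransferase genes Dnmt3a (-0.84, adjusted p = 0.159) and Dnmt3b (-0.94, adjusted p = 0.159) were lower in all 4 pairs. For Dnmt3a this depended on the probe set. Others differed by -0.87, -0.58 and -0.41, each lower in 3 pairs and higher in 1, and another by 0.02. The 13 measured genes of DNA methylation and chromatin had a median of -0.42, with 0 that rose and 0 that fell.

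Among streak and Nodal genes 0 passed. Eomes, a T-box factor of streak and endoderm, was lower in all 4 pairs (-1.12, -1.85, -1.59 and -2.45, adjusted p = 0.0805). Lefty1, a Nodal inhibitor gene, differed by -2.14 (adjusted p = 0.125), Nodal itself by -0.76 (adjusted p = 0.205), and the organizer gene Gsc by -1.35 (adjusted p = 0.184), all 3 lower in every pair. Of 19 measured streak genes 5 were lower (26.3%) and 2 higher (10.5%) in all 4 pairs, against 11.1% and 9.62% of all genes. Their median was 0.23. That median had no settled direction: it was -0.59, -0.69, 1.995 and 0.13 in the 4 pairs, and ran from -0.20 without GFP- replicate 1 to 0.61 without GFP+ replicate 2. For the Nodal pathway, with 15 genes measured, the median was 0.20. In every pair 6 of these genes lay above their E6.5 level (40%) and 3 below it (20%), against 9.62% and 11.1% of all genes. Smad3 (1.05), Cfc1 (1.12) and Foxh1 (0.55) were among the 6. The size for Nodal depended on the probe set: another, at a mean level of 6.72 against 6.84, differed by -1.91, also lower in all 4 pairs. Outside these lists, the large shared decreases that did not pass were those of Parp10, an ADP-ribosyltransferase gene (-2.74), Dgke, a diacylglycerol kinase gene (-1.94), Slc7a7, an amino acid transporter gene (-1.87), Sgk1, a kinase gene (-1.85), Bcl11a, a zinc finger gene (-1.70), and Tpd52 (-1.12). The first 5 were at least 2-fold lower in all 4 pairs, and Tpd52 in 3 of them, with a difference of -0.996 in GFP- replicate 2. The adjusted p was 0.0741 for all but Bcl11a (0.125). They were picked for the size of their smallest pair difference. The E7.5 mean of Parp10 lay below 4.38, so the size of its change is uncertain.

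Wnt target genes had a median of 1.06 over 11 measured, with 0 that rose and 0 that fell. Of these, the stem cell receptor gene Lgr5 (2.46, adjusted p = 0.0805) and the feedback inhibitor genes Nkd1 (1.23, adjusted p = 0.106) and Apcdd1 (1.89, adjusted p = 0.117) were higher in all 4 pairs. The mean level of Lgr5 over all arrays was 3.96, below 4.38, so the size of its change is uncertain. Imprinted growth genes had a median of 1.13 over 14 measured, with 0 calls. In all 4 pairs 8 were higher (57.1%) and 2 lower (14.3%), against 9.62% and 11.1% of all genes. Among the 8 were Igf2, the fetal growth factor (2.43, adjusted p = 0.0864), Phlda2 (3.08, adjusted p = 0.0826) and Cdkn1c, a cell cycle inhibitor gene (1.77, adjusted p = 0.0741). Of 16 cardiac regulators 0 passed. Smarcd3, a chromatin remodelling subunit of heart progenitors, differed by 1.73 (adjusted p = 0.119), Gata4 by 0.64 (adjusted p = 0.694), Isl1 by 0.24 (adjusted p = 0.822) and Nkx2-5 by 0.01 at a mean below 4.38 at both stages (adjusted p = 0.991). Of 11 contractile genes 0 passed either. Actc1, cardiac actin, was 2.47 higher with all 4 pairs up (3.08, 3.10, 1.28 and 2.42, adjusted p = 0.0805), and Myl7, an atrial myosin light chain gene, 2.45 higher (adjusted p = 0.119). The E6.5 mean of Actc1 lay below 4.38, so the size of its change is uncertain.

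**Figure D3:**
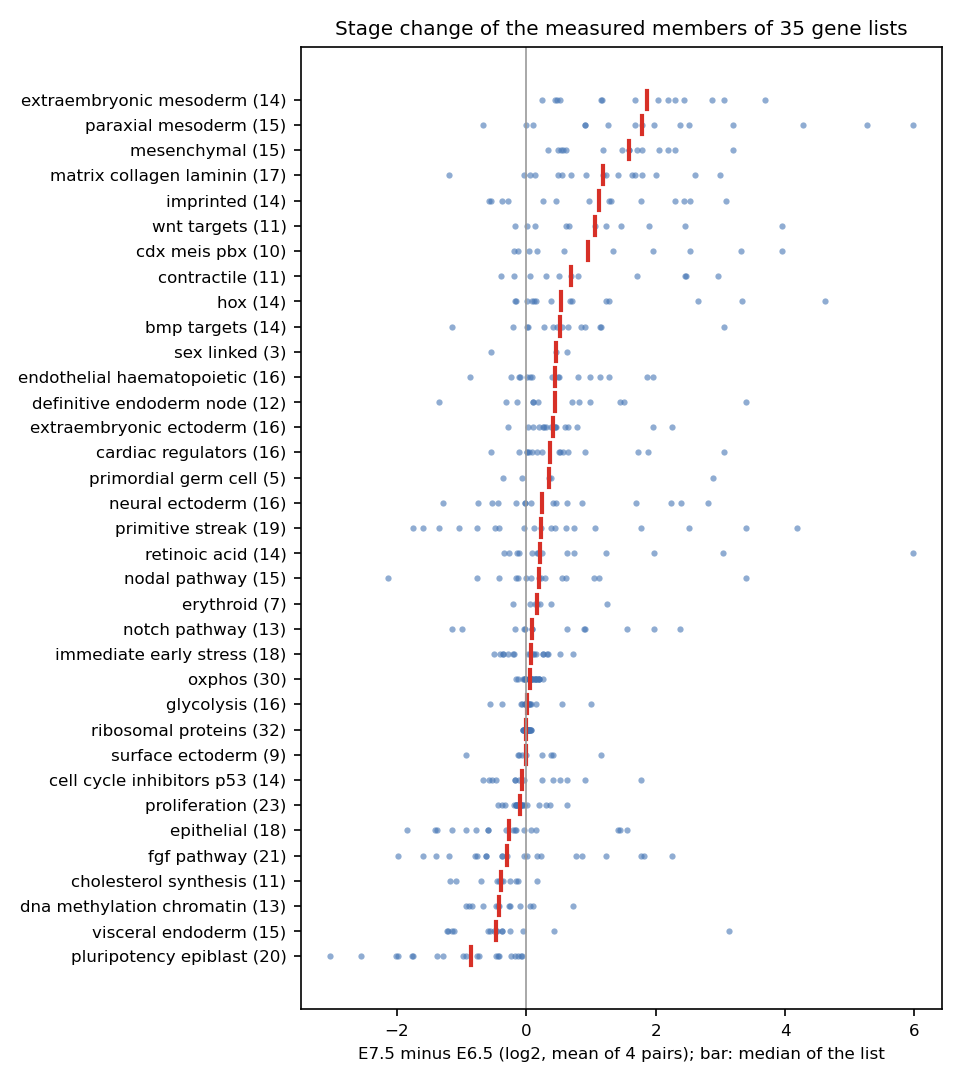
Difference between E7.5 and E6.5 (log2, mean of 4 pairs, horizontal axis) of every measured member of 35 gene lists (points; number measured in brackets), with the median of each list as a red bar. Medians run from -0.85 for pluripotency and epiblast genes to 1.86 for extraembryonic mesoderm genes, and lie close to 0 for ribosomal protein, glycolysis and oxidative phosphorylation genes.

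List medians for general cell function stayed close to the median of all genes, while some single members differed. Over 32 measured ribosomal protein genes the median was -0.0024, with single genes between -0.06 and 0.07. The medians were 0.06 over 30 oxidative phosphorylation genes, 0.02 over 16 glycolysis genes, -0.10 over 23 proliferation genes and 0.08 over 18 immediate early and stress genes, with 0 calls in each. On the glycolysis list Slc2a3 (1.00) and Slc2a1 (0.55) were higher in all 4 pairs and 0 genes lower. Of the oxidative phosphorylation genes 8 were higher (26.7%) and 1 lower (3.33%) in all 4, against 9.62% and 11.1% of all genes. Changes on that list lay between -0.16 and 0.26. Proliferation genes ran from -0.44 to 0.64. Fos, an immediate early gene that tissue dissociation can induce, was 0.72 higher in all 4 pairs (0.78, 0.93, 0.75 and 0.44, adjusted p = 0.159). Xist, expressed from the inactive X of female cells, differed by -0.55 (adjusted p = 0.229). The Y-linked genes Kdm5d (0.17, 1.24, 0.36 and 0.74, adjusted p = 0.334) and Eif2s3y (0.06, 0.58, 1.76 and -0.55, adjusted p = 0.698) did not pass either, and the 3 had a median of 0.47. Another probe set of Kdm5d differed by -0.43, lower in 3 pairs and higher in 1, so its sign depends on the probe set. The labels do not give the sex of the embryos, and its part in other genes was not tested.

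Levels of markers of other cell types also differed between the stages. Over 14 measured extraembryonic mesoderm genes the median was 1.86, with 2 that rose (Vim and Twist1, both also on the mesenchymal list) and 0 that fell. Their summed linear level was 707.6 to 1675 in GFP+ and 914.3 to 1736 in GFP- cells at E6.5, and 3539 to 5632 and 5334 to 6591 at E7.5. Among them, Bmp4 (4.45, 3.06, 2.02 and 1.93, adjusted p = 0.116) and Foxf1 (4.47, 1.05, 4.66 and 4.58, adjusted p = 0.135) were higher in every pair. The sum of visceral endoderm genes was higher at E7.5 in GFP+ cells and overlapped between stages in GFP- cells. It was 328.2 to 446.8 in GFP+ cells at E6.5 and 1068 to 1118 at E7.5, and 1263 to 5397 in GFP- cells at E6.5 and 1093 to 2322 at E7.5. Over 15 measured, 0 passed, and the median was -0.47, with 0.34, -0.02, -0.92 and -1.62 in the 4 pairs. The higher sum in GFP+ cells came in part from Cited1, a transcriptional coactivator gene that was higher in all 4 pairs (4.21, 4.41, 3.27 and 0.66, adjusted p = 0.171). Without Cited1, which was singled out after its values were seen, the sum was 303.7 to 419.1 in GFP+ cells at E6.5 and 528 to 616.1 at E7.5, and 1199 to 4945 in GFP- cells at E6.5 and 476.6 to 1607 at E7.5. Ttr, the transthyretin gene, had pair differences of 0.03, -0.39, -1.52 and -3.05 (adjusted p = 0.437), and Apob, an apolipoprotein gene, of -0.29, -0.04, -2.63 and -1.62 (adjusted p = 0.413). Extraembryonic ectoderm genes summed to 532.7 to 673 in GFP+ and 972 to 2034 in GFP- cells at E6.5, and to 1169 to 1290 and 1648 to 2862 at E7.5, with 2 of 16 that rose, Fgfr2 and Cdx2, which embryonic tissue also expresses. Pluripotency genes, the defining markers of the epiblast, summed to 11510 to 13020 in GFP+ and 17190 to 19410 in GFP- cells at E6.5, and to 5978 to 7829 and 10140 to 10540 at E7.5. Paraxial mesoderm genes summed to 1123 to 1503 in GFP+ and 417.1 to 430.1 in GFP- cells at E6.5, and to 3737 to 6891 and 2717 to 3888 at E7.5. Values on this array have no 0, so that absent markers cannot be named. The part of these cell types in the gene changes was not tested.

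The remaining lists held few calls. Of 16 measured neural ectoderm genes 2 rose, Gbx2 and Ncam1, and 0 fell (median 0.24), while Irx1, an Iroquois homeobox gene, was 2.24 higher in all 4 pairs (adjusted p = 0.132) and Zic5 differed by -0.74 (adjusted p = 0.150). Of 16 endothelial and haematopoietic genes 0 passed (median 0.45), with 4 higher (25%) and 1 lower (6.25%) in all 4 pairs. Over all genes these shares were 9.62% and 11.1%. Lmo2 (1.86), Gata1 (1.28), Fli1 (0.99) and Ikzf1 (0.40) were the higher ones, at mean levels of 4.34 to 4.72, near 4.38. Flt1 was the lower one (-0.86), but further probe sets of it differed by -0.08 and -0.06. Kdr, the VEGF receptor gene of vascular progenitors, was higher in 3 pairs and lower in GFP+ replicate 2 (2.46, -1.22, 3.23 and 3.36, adjusted p = 0.419), and Hand1, a factor gene of extraembryonic mesoderm and heart, showed the same pattern (4.07, -0.39, 4.65 and 3.89, adjusted p = 0.267). Another probe set of Hand1 was higher in all 4 pairs (mean 2.23), so for Hand1 the sign depends on the probe set in GFP+ replicate 2. In that pair the extraembryonic mesoderm list had a median of 0.27, against 2.07, 1.74 and 1.70 in GFP+ replicate 1, GFP- replicate 1 and GFP- replicate 2.

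Definitive endoderm and node genes had a median of 0.45 over 12 measured with 0 calls. Cer1, a secreted inhibitor gene of anterior endoderm, was higher in 3 pairs and lower in GFP- replicate 2 (5.12, 5.86, 3.94 and -1.30, adjusted p = 0.349), and Chrd, a BMP antagonist gene, was 0.99 higher in all 4 (adjusted p = 0.133). BMP target genes (median 0.52, 14 measured), erythroid genes (0.16, 7 measured), surface ectoderm genes (-0.0033, 9 measured), primordial germ cell genes (0.36, 5 measured), cholesterol synthesis genes (-0.40, 11 measured) and cell cycle inhibitor and p53 target genes (-0.07, 14 measured) had 0 calls each. Hbb-bh1, the embryonic globin gene of the first red cells, had pair differences of -0.21, 0.12, 2.26 and 2.83 (adjusted p = 0.471), above 2 in the GFP- pairs alone. The mean level of Hbb-bh1 over all arrays was 3.88, below 4.38, so these sizes are uncertain. Ifitm1, a gene of nascent mesoderm and germ cell precursors, was higher in all 4 pairs (1.82, 1.49, 4.90 and 3.34, adjusted p = 0.166).

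The fractions were then set side by side. In both replicates of GFP+ cells 185 genes were at least 2-fold higher at E7.5, and in GFP- cells 222, of which 70 were shared (37.8% of the GFP+ genes and 31.5% of the GFP- genes). For lower genes the counts were 69 and 161 with 13 shared (18.8% and 8.07%). Opposite changes of this size numbered 0 for genes higher in GFP+ and lower in GFP- cells and 3 for the reverse. The interaction of fraction and stage passed for 0 genes in limma's fit (smallest adjusted p = 0.688), and 754 genes had an unadjusted p under 0.05. A stage change of different size in the 2 fractions was thus not shown for any gene.

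The 5 genes with the smallest interaction p are given as a description. Mesp1, whose promoter drives the reporter, was lower at E7.5 in GFP+ pairs and higher in GFP- pairs (-1.01, -1.38, 2.12 and 1.80). The E6.5 levels were 9.76, 10.03, 5.64 and 6.26 and the E7.5 levels 8.74, 8.65, 7.76 and 8.06, so the fractions lay nearer each other at E7.5. The mean over 4 pairs was 0.38 ± 0.68 (SE) (adjusted p = 0.885), and the GFP+ change minus the GFP- change was -3.15 ± 0.31 (SE) (adjusted p = 0.688). Aplnr, the apelin receptor gene of migrating mesoderm, was higher in all 4 pairs, by 2.37, 1.92, 6.57 and 5.89 (mean 4.19 ± 0.89 (SE), adjusted p = 0.179), with an interaction of -4.09 ± 0.38 (SE) (adjusted p = 0.688). The size for Aplnr depended on the probe set: another, at a mean level of 7.80 against 8.14, differed by 2.10, also higher in all 4 pairs. Nfatc1, an endocardial factor gene (-1.83, -1.57, 1.89 and 1.31), and Cdh11, a mesenchymal cadherin gene (-0.70, -1.31, 2.18 and 2.12), were lower in GFP+ and higher in GFP- pairs. Spry1, an FGF feedback inhibitor gene, went the other way (0.90, 0.97, -1.82 and -1.58). Each of these had an adjusted interaction p of 0.688. Another probe set of Nfatc1 was higher in 3 pairs and lower in 1 (mean 0.39), so its pattern depends on the probe set. Of the 27 called genes, 2 had an unadjusted interaction p under 0.05, Msgn1 and Dppa5a, with GFP+ minus GFP- differences of -1.82 ± 0.30 (SE) and 1.22 ± 0.31 (SE).

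**Figure D4:**
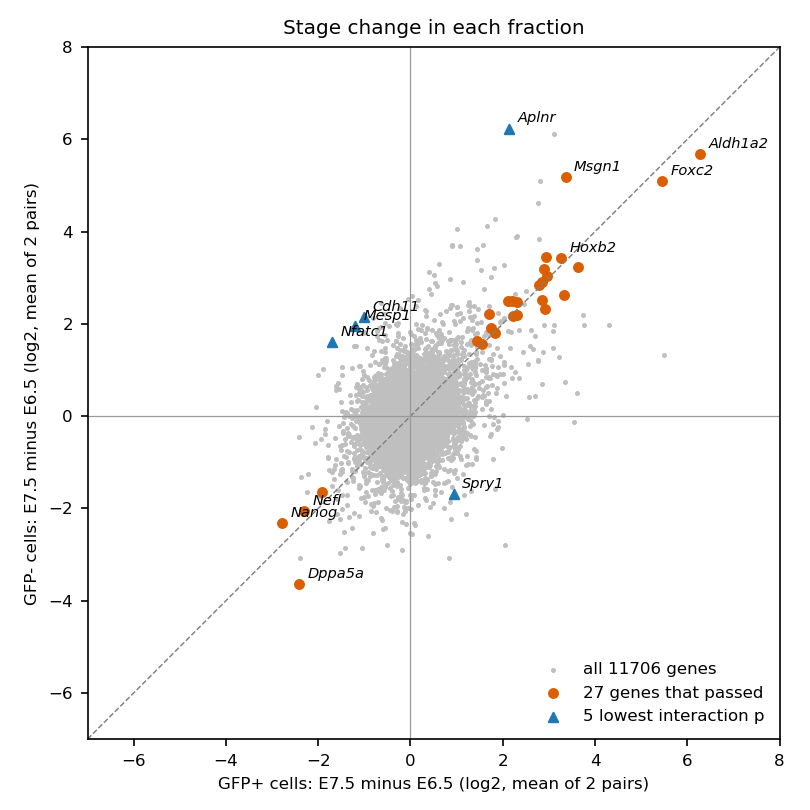
Mean difference between E7.5 and E6.5 (log2, over 2 pairs) in GFP+ cells (horizontal axis) and in GFP- cells (vertical axis) for all 11706 genes (grey), with the 27 genes that passed in orange and the 5 genes with the lowest interaction p as blue triangles; the dashed line marks equal change. The 27 genes, which the fit picked for even changes over the pairs, lie in the upper right and lower left. Msgn1, one of them, and Aplnr lie above the line, and Mesp1, Nfatc1 and Cdh11 lie in the quadrant of lower GFP+ and higher GFP- levels.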

How the data were processed

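The labels describe 50 sorted cells per sample, amplified cDNA and Affymetrix Mouse Genome 430 PM arrays. The authors deposited log2 expression values per probe set, made with RMA (per the submitters' processing notes), whose version is not given in the sources used here. Depth is not defined for arrays, and their number limits the precision. Of 45141 probe sets, 28898 had 1 gene symbol in the platform annotation and were used, 551 had several and 15692 none. A gene was tested when at least 2 of 8 arrays exceeded 4.38, the median of all values, through the probe set of highest mean level. No background measure per probe set was used.

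Stage was tested with limma 3.58.1 in R 4.3.3 (lmFit, eBayes, two-sided), with the 4 pairs as a fixed block (3 residual degrees of freedom, prior 2.53) and Benjamini-Hochberg adjustment over 11706 genes. Differences are E7.5 minus E6.5. The interaction was a further fit, coded as the GFP+ minus the GFP- change. The script was checked on simulated data. To check the pairing, each array's deviation from its group mean was correlated across genes with that of the same-numbered array in another group. All 6 correlations were positive (r = 0.401 to 0.532). Groups of the same fraction gave 0.532 and 0.401, and groups of different fractions 0.402 to 0.519. A difference between the replicate numbers alone, such as separate normalization, would also give positive correlations. The check therefore cannot show a pairing by embryo or by fraction. The pairing was taken from the labels' numbers. Named genes were the 15 largest called changes in each direction (filled up, where fewer were called, by the largest smallest-pair difference), up to 5 genes per list by p with its defining regulators, and the 5 smallest interaction p. Members, lists and this rule were chosen with earlier results of these data known.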

Additional observations from a re-analysis of the deposited data

Results flagged for a closer look

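In 6 named genes, 1 of the 4 pair differences stood apart from the other 3 by Dixon's criterion at the 95% level, which chance meets in about 1 of 20 groups of values, and 105 genes were examined. Ap1m2 differed least in GFP- replicate 1 (-1.322), and Parp10 most in GFP- replicate 2 (-4.01). Tpd52 differed most in GFP- replicate 1 (-1.421), and Zic5 most in GFP+ replicate 2 (-1.027). GFP+ replicate 2 also held the low values of Foxf1 (1.049) and Hand1 (-0.3939), both genes of extraembryonic mesoderm. Another probe set of Hand1 was higher in all 4 pairs.

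For 4 of the 105 genes examined, both GFP+ pairs moved one way and both GFP- pairs the other. All 4 had been named for their small interaction p, which favours this pattern, so their number is no separate result. The share of all genes with this pattern was not counted. The GFP+ minus the GFP- change was -3.15 for Mesp1, -3.154 for Cdh11, -3.302 for Nfatc1 and 2.636 for Spry1. The interaction fit of limma gave each an adjusted p of 0.688, so none of these differences passed the test over all genes. Another probe set of Nfatc1 was higher in 3 pairs and lower in 1.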

How the results depend on the processing

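With 4 pairs of 50-cell samples the calls are limited by the number of arrays, and low probe sets have no background measure. The 27 calls became 29 with no replicate block (pairing ignored; 17 shared with the 27), 70 with the replicate block as additive terms, 94 with the replicate block and group means, and 138 with a random replicate block. With no replicate block, Ap1m2 (adjusted p = 0.189), Dppa5a (0.0503), Fgfr3 (0.0549), Foxc1 (0.0876), Greb1l (0.0699), Mn1 (0.181), Ncam1 (0.13), Notch1 (0.469), Twist1 (0.114) and Unc5c (0.0509) did not pass. The other blocked fits shared 25, 23 and 26 genes with the 27. The calls became 46 with an intensity trend (27 shared) and 15 without a filter (15 shared). The mean of all probe sets gave 22 calls (18 shared), without Fgfr2, Fgfr3, Foxc1, Nhsl2, Ncam1, Cdx2 (adjusted p = 0.0779), Notch1 (0.0618), Unc5c (0.0765) and Vim (0.0658). Quantile normalization over all arrays gave 28 (24 shared), without Ncam1 (adjusted p = 0.168), Nefl (0.0607) and Twist1 (0.0713). Leaving out a pair or a replicate number gave 0 to 4 calls and 120 to 308 genes with at least 2-fold in the pairs left, where 83 had it in all 4. Those fits have fewer residual degrees of freedom and fewer pairs to satisfy. The interaction passed for 0 genes in limma under each alternative for which it was fitted (smallest adjusted p from 0.0827 to 0.9999).

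The 27 called genes kept their direction without the block, with the mean of all probe sets, with quantile normalization and with each pair left out. Of the named genes that did not pass, Nfatc1, Nkx2-5, Gata4, Isl1, Mesp1, Spry1 and Sox2 changed sign in at least 1 of these. Some list medians moved. Without a filter, which admits further genes, the median was 0.12 for Hox genes and 0.81 for matrix genes. With the mean of all probe sets it was 0.36 for retinoic acid, 0.87 for mesenchymal, 0.69 for matrix, -0.0014 for immediate early and 0.0065 for sex-linked genes, and with quantile normalization over all arrays 0.24 for retinoic acid genes; the cause was not tested. With a pair left out, medians ran from 0.12 to 0.34 for retinoic acid, 0.40 to 0.59 for Hox, 0.062 to 0.21 for erythroid, 0.034 to 0.17 for Nodal pathway, 0.097 to 0.27 for neural ectoderm and 0.66 to 1.28 for imprinted genes. They ran from -0.17 to 0.55 for primordial germ cell, 0.0016 to 0.049 for immediate early, -0.37 to -0.26 for DNA methylation and 0.034 to 0.60 for sex-linked genes. Further medians moved by over 1.5 times or changed sign with a pair left out. They ran from 0.27 to 0.75 for BMP targets, 0.025 to 0.73 for cardiac regulators, 0.22 to 0.59 for endothelial, 0.24 to 0.63 for extraembryonic ectoderm, 0.068 to 0.40 for Notch pathway, 0.60 to 1.16 for Wnt target and -0.20 to 0.61 for streak genes. They ran from -0.86 to -0.17 for visceral endoderm, -0.50 to -0.20 for cholesterol synthesis, -0.45 to -0.25 for epithelial and -0.33 to -0.20 for FGF pathway genes. Those of p53 and cell cycle inhibitor (-0.14 to 0.042), proliferation (-0.14 to -0.060), surface ectoderm (-0.046 to 0.14), glycolysis (-0.032 to 0.036) and ribosomal protein genes (-0.012 to 0.018) stayed near 0. Without a filter the median was 0.28 for definitive endoderm, 0.28 for endothelial, 1.17 for extraembryonic mesoderm, 0.64 for Wnt target, -0.018 for primordial germ cell and 0.14 for sex-linked genes. With the mean of all probe sets it was 0.26 for extraembryonic ectoderm, -0.11 for FGF pathway, 0.12 for neural ectoderm and 0.17 for primordial germ cell genes.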
